A study of Rattus norvegicus with 6 samples.

Results

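The untreated aneurysm wall was described from the 3 libraries, of 6 in the series, whose treatment label says that the aneurysm received no treatment. Their group was taken from that label alone, and they were chosen with earlier results of these data known. Each was made from total RNA of the abdominal aorta of Sprague-Dawley rats, an outbred laboratory strain. The other 3 libraries, of aneurysms treated with NP, were not used here. All 6 libraries come from aortas with an aneurysm, so no level below is set against an aorta without one. The sources used here do not give how the aneurysms were made, how old the rats were or where along the aorta the tissue was cut. The labels do not say that each library is a separate rat, so the spread between replicates may be partly technical.

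The aortic wall consists of an endothelial lining, a media in which smooth muscle cells lie between sheets of elastin, and an adventitia of fibroblasts, collagen, small vessels, nerves and fat. In an abdominal aortic aneurysm the elastic sheets are broken, smooth muscle is lost, collagen is laid down and degraded by proteases, and macrophages and lymphocytes enter the wall. A tissue library mixes the RNA of all these cells, so that fewer cells of a type and less RNA per cell cannot be told apart.

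The deposited table gave a read count and an FPKM value, the number of fragments scaled by gene length and library size, for 24988 genes. Levels of different genes are compared here as FPKM, since this scale takes gene length into account. A share is the summed FPKM of a gene list as a percent of the summed FPKM of all genes in the same library. Where 3 values follow each other they belong to untreated replicates 1, 2 and 3 in that order, and a value after ± is the SD over these 3 libraries. Total counts were 28717872, 27680260 and 30759349. A mean FPKM of at least 1 was reached by 13269 genes, 12204 genes reached that level in each library, and 4765 genes were at 0 in all of them. A gene was counted as differing between libraries when its highest FPKM was at least 2 times its lowest, after 0.5 was added to both, among the genes with a mean FPKM of at least 1. This held for 1729 of 13269 genes, or 13.0%. Over all 13269 genes, replicate 1 was the highest library for 42.4%, replicate 2 for 32.1% and replicate 3 for 25.5%. The counts of each gene list below are read against these shares. No test was made, since only 1 group is described.

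The libraries were nearest to each other in the pair of replicates 1 and 3, with 722 genes past the 2-fold limit, and in the pair of replicates 2 and 3, with 771. Replicates 1 and 2 differed in 1212 genes. Across the 13269 genes, which are not independent replicates, Pearson's r of log2(FPKM + 0.5) was 0.961, 0.956 and 0.939 for these pairs. Replicate 2 stood apart by few red cell transcripts and many lymphocyte transcripts, and replicate 1 by many nerve transcripts. These values are given beside the lists they belong to.

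The 5 genes taken as markers of the vessel wall were all present at high level. The FPKM of Col1a1, a chain of type I collagen, was 1819.6, 1562 and 1649. Col3a1, the chain of type III collagen, had an FPKM of 2697, 2373 and 2487. Both collagen genes lay within a narrow range, with a mean of 1677 ± 131 for Col1a1 and 2519 ± 164 for Col3a1. Eln, which encodes the elastin precursor, had an FPKM of 1267, 511 and 768, so that replicate 1 held more than both others. Spp1, which encodes osteopontin, a matrix-bound cytokine made by macrophages and by smooth muscle cells outside the contractile state, had an FPKM of 1309, 1489 and 933. Acta2, the smooth muscle actin gene, had an FPKM of 468, 418 and 453 and a mean of 446 ± 25.6. The order of the means was Col3a1, Col1a1, Spp1, Eln and Acta2. Spp1 lay above Eln in each library, by least in replicate 1. Within a library the ratio of Col3a1 to Col1a1 on the FPKM scale was 1.48, 1.52 and 1.51, and that of Acta2 to Col1a1 was 0.257, 0.268 and 0.274, so that these ratios hardly differed between libraries.

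Transcripts of few genes made up much of the RNA. The 10 highest genes of a library held 23.3%, 24.6% and 24.7% of its summed FPKM, and the 100 highest held 48.3%, 48.4% and 48.7%. A total of 116, 114 and 112 genes sufficed for 50% of the summed FPKM. The libraries shared 6 of their 10 highest and 83 of their 100 highest genes. Of the 100 genes of highest mean, 29 encode cytosolic ribosomal proteins, 13 are encoded by the mitochondrial genome, 8 belong to the general cytoskeleton, 6 to the macrophage list, 4 to the red cell list and 4 to the matricellular proteins, and 18 were in none of the lists.

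The highest mean FPKM of all genes was that of Mt-atp6, a mitochondrial subunit of ATP synthase, at 19049 ± 4069. Mt-co1 and Mt-co3, subunits of cytochrome c oxidase, followed at 17566 ± 3151 for Mt-co1 and 15447 ± 2412 for Mt-co3. The nuclear genes of highest mean are best known from red cells and macrophages. Hba-a1, an alpha-globin gene of red cells, had a mean FPKM of 14491 ± 9876. Apoe, the apolipoprotein of lipid transport that foamy macrophages secrete, had a mean FPKM of 14129 ± 4763, and Lyz2, the lysozyme gene of macrophages and neutrophils, 12982 ± 4587. The highest gene of the cytoskeleton was Tmsb4x, which encodes the actin-binding peptide thymosin beta 4, at 7962 ± 1262. Cd74, the invariant chain of MHC class II, followed at 3429 ± 566, and Fth1, the ferritin heavy chain, at 3041 ± 586. The first matrix genes in the order were Sparc, a collagen-binding glycoprotein of cells that lay down matrix, at 2921 ± 332, and Mgp, the matrix Gla protein that holds back calcification, at 2562 ± 666. Further genes among the highest were Cst3, the cathepsin inhibitor cystatin C, at 2487 ± 571, Tpt1, the growth-related protein TCTP, at 2296 ± 680.1, Actb, the cytoplasmic actin, at 2002 ± 303, and Eef1a1, an elongation factor of translation, at 1937 ± 279.9. Gpnmb, a glycoprotein of lipid-laden macrophages, reached 1953 ± 467, Ctsb, the lysosomal protease cathepsin B, 1935 ± 529, and Gm2a, a lysosomal activator of ganglioside breakdown that was in none of the lists, 1819 ± 594.

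**Figure D1:**
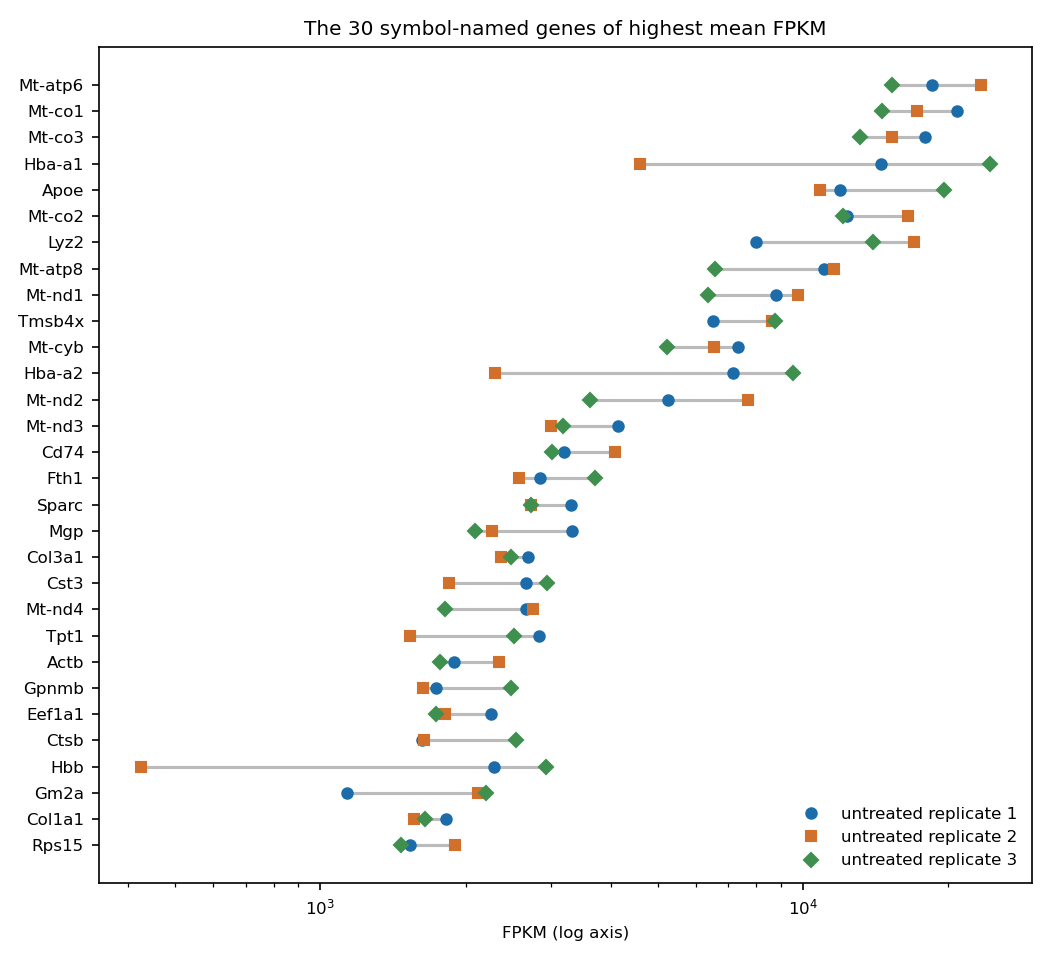
FPKM on a log axis of the 30 genes of highest mean FPKM that carry a usual gene symbol, 1 point for each untreated library and a grey line from the lowest to the highest. Mitochondrial genes, globin genes, Apoe and Lyz2 lead, and the globin genes Hba-a1, Hba-a2 and Hbb have the widest ranges, with replicate 2 lowest.

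By class, mitochondrially encoded genes held 18.6% ± 3.45 of the summed FPKM, genes of the cytosolic ribosome and translation 8.97% ± 0.333, and immune genes 8.44% ± 1.36. Red cell and platelet genes held 4.25% ± 2.70, matrix genes 3.52% ± 0.514, genes of the general cytoskeleton 3.04% ± 0.291, and proteases, their inhibitors and lysosomal genes 2.56% ± 0.363. Nuclear genes of the respiratory chain and glycolysis held 1.81% ± 0.149, and markers of fibroblasts, endothelium, fat and nerve 0.753% ± 0.137. The share of smooth muscle genes was 0.677% ± 0.0391. All lists together held 53.6% ± 0.479, and genes in no list 46.4% ± 0.479. The order of the classes depended on the scale: of the total counts, in which long transcripts weigh more, matrix genes held 7.44%, immune genes 7.62%, mitochondrially encoded genes 11.4% and smooth muscle genes 0.908%. By FPKM the immune share was above the matrix share in each library. By counts the matrix share was 8.35%, 7.03% and 6.93% and the immune share 6.25%, 7.95% and 8.66%, so that matrix was the higher in replicate 1 and immune in both others.

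**Figure D2:**
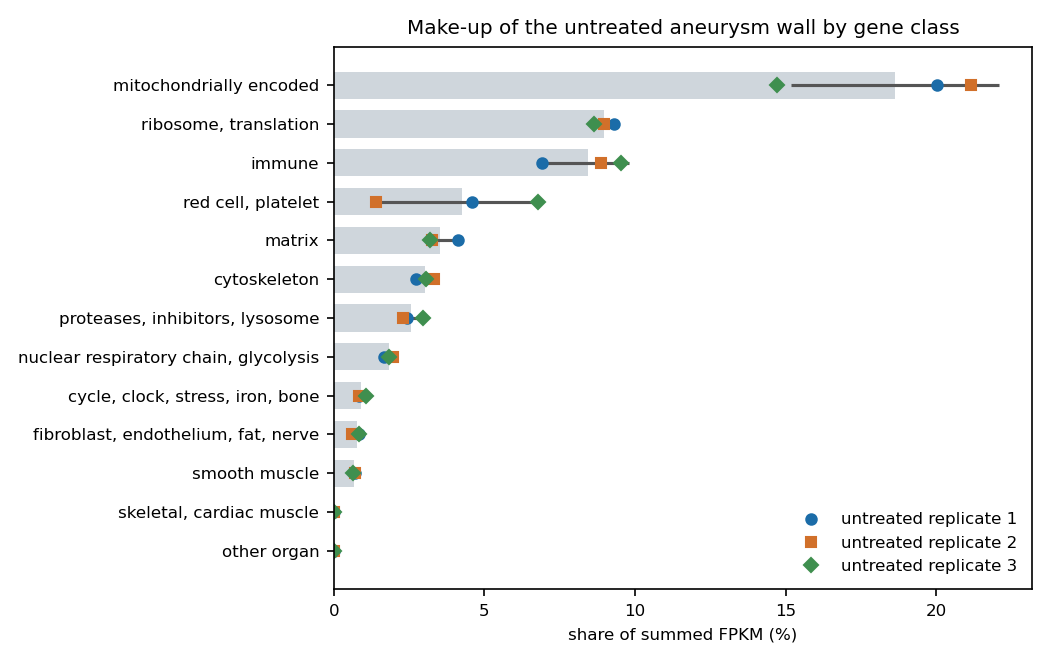
Share of the summed FPKM, in percent, of each class of genes in the untreated aneurysm wall, with a point for each library, a bar for the mean and a line for the SD either way. The mitochondrial class is the highest in each library, and the red cell and platelet class has the widest range for its size, from 1.40% to 6.78%.

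Matrix genes held 4.12%, 3.26% and 3.19% of the summed FPKM, with replicate 1 above both others. Of 153 genes in the matrix class, 139 were matched and 111 had a mean FPKM of at least 1. The median of these 111 was 27.8 FPKM, against 7.67 over all 13269 genes. The 2-fold limit was passed by 23 of the 111, and replicate 1 was the highest library for 77 of them, or 69.4%, against 42.4% of all genes.

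The fibrillar collagens, which form the load-bearing fibres, held 0.846%, 0.740% and 0.757%. Nearly all of this came from Col3a1 and Col1a1, and 2 of 8 genes, both of low level, passed the 2-fold limit. Type V collagen, which nucleates these fibres, was far lower, with a mean FPKM of 80.0 ± 13.4 for Col5a2, 69.3 ± 16.6 for Col5a1 and 58.2 ± 5.01 for Col5a3. Col11a1, a minor fibril chain, had an FPKM of 7.37, 3.43 and 2.62, with replicate 1 highest. Col24a1, another minor fibril chain, lay near the limit of 1 FPKM, at 0.561, 1.89 and 0.871. Col2a1, the cartilage collagen, was at 0, 0.0296 and 0. Col1a2 was not analysed here.

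Among the other interstitial collagens, the microfibrillar type VI chains were the highest, with a mean FPKM of 457 ± 32.4 for Col6a2 and 274 ± 7.41 for Col6a1. Their ratio, Col6a1 over Col6a2, was 0.591, 0.669 and 0.552. This list held 0.187%, 0.170% and 0.176%, and 3 of 14 genes passed the limit. Col18a1, the source of endostatin, had a mean FPKM of 93.5 ± 21.3, Col15a1 of 68.0 ± 3.92 and Col14a1, which binds along collagen fibrils, of 38.9 ± 7.27. Col8a1, a short-chain collagen of vessel walls, differed most between libraries, with an FPKM of 40.8, 6.72 and 10.9. Col6a5, at 1.97, 7.17 and 4.94, was lowest where Col8a1 was highest, and Col28a1 was low throughout, at 1.98, 1.47 and 0.237.

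Elastic fibre and microfibril genes held 0.353%, 0.167% and 0.230%, the widest relative range of all matrix lists. Of 16 such genes, 13 were highest in replicate 1 and 5 passed the 2-fold limit. Mfap4, a glycoprotein of elastic fibres, had an FPKM of 127, 22.0 and 34.3. Fbln5, a fibulin that places elastin on the microfibrils, had an FPKM of 83.8, 28.4 and 35.4. Mfap2, a microfibril protein, was at 62.2, 30.03 and 62.9, with replicate 2 lowest, as for Eln. Mfap5, a further microfibril protein, was highest in replicate 3, at 61.9, 63.0 and 92.9. Fbn1, which encodes fibrillin, the backbone of the microfibrils, varied less, at 45.5, 28.2 and 37.2, and the ratio of Eln to Fbn1 was 27.9, 18.2 and 20.6. Replicate 1 was thus above both others in elastin relative to fibrillin as well.

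Genes that process and crosslink collagen held 0.180%, 0.162% and 0.149%, and 1 of 17 passed the 2-fold limit. Serpinh1, the collagen chaperone, had a mean FPKM of 278 ± 51.6. Pcolce, which enhances the removal of the procollagen propeptide, had 219 ± 19.8, and Plod1, a lysyl hydroxylase, 43.5 ± 3.04. P3h3, of the prolyl hydroxylase family, had 49.6 ± 5.97, and P4ha1, a prolyl hydroxylase subunit, was lowest in replicate 3, at 32.5, 36.4 and 18.2. Loxl1, a crosslinking enzyme of elastin, had a mean of 90.8 ± 14.6. Lox, the lysyl oxidase that crosslinks collagen and elastin, was the gene past the limit, at 52.9, 20.5 and 25.7, and was highest in replicate 1, as was Eln. Loxl4 was barely expressed, at 1.56, 0.824 and 0.616.

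Basement membrane genes, which surround smooth muscle cells and underlie endothelium, held 0.0781%, 0.0619% and 0.0573%. Replicate 1 was highest for 11 of 13 genes, while 1 of the 13 passed the 2-fold limit. Col4a1 had an FPKM of 158, 131 and 118 and Col4a2, its partner in the same trimer, 74.9, 53.6 and 47.6, a ratio of 2.11, 2.44 and 2.49. The laminin chains Lamb2, Lamb1 and Lamc1 had a mean of 45.6 ± 2.90 for Lamb2, 18.5 ± 2.36 for Lamb1 and 17.7 ± 5.33 for Lamc1, and Nid1, the nidogen that links laminin to collagen, had 34.0 ± 6.62. The gene past the limit was Col4a5, at 12.0, 6.22 and 3.50.

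Proteoglycan genes held 0.512%, 0.330% and 0.397%, and replicate 1 was the highest library for all 11 with a mean FPKM of at least 1. Bgn, which encodes biglycan, a leucine-rich proteoglycan of the vessel wall, had an FPKM of 1290.2, 785 and 967. Dcn, the collagen-binding decorin, had 725, 460.1 and 700.3, and Lum, which encodes lumican, 566, 442 and 426. These 3 were the most abundant and differed less than 2-fold. The small leucine-rich proteoglycans Prelp, at 153, 69.3 and 104, Ogn, at 59.0, 37.6 and 23.5, and Fmod, at 44.2, 20.1 and 19.2, and Acan, the large aggregating proteoglycan of cartilage and of stressed aorta, at 5.50, 1.17 and 3.04, were the 4 past the limit.

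Matricellular proteins and glycoproteins held the largest matrix share, 1.96%, 1.63% and 1.43%. Sparc, Mgp and Spp1 were the leading members, and 7 of 32 passed the limit. Mgp was at 3324, 2271 and 2092 and Sparc at 3304, 2727 and 2732, both highest in replicate 1. Igfbp7, a growth factor binding protein of vessel walls, had a mean FPKM of 751 ± 97.8. Fn1, which encodes fibronectin, had an FPKM of 552, 678 and 407 and, like Spp1, was highest in replicate 2. The member with the widest range was Ccn2, the connective tissue growth factor, at 191, 26.6 and 62.0. Smoc1, at 33.4, 7.03 and 12.4, and Comp, cartilage oligomeric matrix protein, at 22.8, 5.24 and 11.7, had the same order of libraries as Ccn2, with replicate 1 highest and replicate 2 lowest.

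Matrix-degrading proteases held 0.268%, 0.195% and 0.268%, far below the matrix they act on. Mmp2, a gelatinase of fibroblasts and smooth muscle cells, was the highest at 421, 312 and 458. Mmp14, the membrane protease that activates it, had 250.3, 252 and 294. Mmp12, the macrophage elastase, had an FPKM of 359, 62.7 and 209, high in replicate 1 and low in replicate 2, and its ratio to Mmp2 was 0.854, 0.201 and 0.456. Mmp9, the gelatinase of macrophages and neutrophils, had 78.5, 76.0 and 192, with replicate 3 alone high. Thus the elastase and this gelatinase peaked in different libraries. Adamts8, at 14.5, 56.9 and 26.9, was highest in replicate 2, and Mmp7, matrilysin, was low except in replicate 3, at 1.61, 0.969 and 6.93. Adam15 had a mean FPKM of 61.1 ± 4.64. In all, 11 of 31 proteases passed the 2-fold limit.

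Protease inhibitors held 0.764%, 0.646% and 0.877%, and most of it was Cst3, the cathepsin inhibitor. The cathepsins Ctsb, Ctsd and Ctsk are counted with the lysosomal genes and not with the matrix-degrading proteases. The share of inhibitors was above that of these proteases in each library, but the lists are not matched as inhibitor and target. Serping1, the C1 inhibitor, had an FPKM of 647, 801 and 1217. Timp1, an inhibitor of matrix metalloproteinases, had 266, 432 and 274, while Timp2, another member of that family, had 430.0, 268 and 383. Timp1 was highest and Timp2 lowest in replicate 2, and the ratio of Timp1 to Mmp2 was 0.633, 1.38 and 0.598. Serpine2, a serine protease inhibitor, had a mean of 65.0 ± 20.1. Slpi, a secreted inhibitor of leukocyte elastase, had an FPKM of 41.2, 52.8 and 3.41, so that replicate 3 was far below the others. A2m, a broad protease inhibitor, was low in each library, at 0.682, 3.09 and 1.92. In all, 3 of 12 inhibitors passed the limit.

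Lysosomal genes held 1.38%, 1.45% and 1.83%, and replicate 3 was the highest library for 16 of 24, or 66.7%, against 25.5% of all genes. Ctsb had an FPKM of 1622, 1637 and 2545, and Ctsd, another cathepsin, 725, 773 and 985. Ctsk, a collagen-degrading cathepsin of macrophages and osteoclasts, had 472, 287 and 806, and Atp6v0d2, a proton pump subunit of the same cells, 24.6, 17.9 and 38.8. These 2 passed the 2-fold limit and were highest in replicate 3, as was Mmp9. Psap, the precursor of the saposins, varied little, with a mean of 1177 ± 78.3, and Atp6v0c, a proton pump subunit, had 587 ± 137.

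Smooth muscle genes held 0.692%, 0.707% and 0.633% of the summed FPKM. Of 39 with a mean FPKM of at least 1, 4 passed the 2-fold limit, or 10.3%, against 13.0% of all genes. Replicate 1 was the highest library for 30 of the 39, or 76.9%, against 42.4% of all genes. The contractile list held 0.628%, 0.655% and 0.587%. Its highest member, Myl6, at 659.8, 781 and 776, is a myosin light chain of nearly all cells, and the share of muscle genes without it was 0.547%. Tagln, the actin-binding SM22, had an FPKM of 532, 639 and 442. Myl9, a regulatory light chain of smooth muscle myosin, had 328, 376 and 304, and Csrp1, a LIM protein of smooth muscle, 323, 345 and 312. Myh11, the smooth muscle myosin heavy chain, which was chosen after its values were seen, had 108, 92.3 and 83.5. The ratio of Acta2 to Myh11 was 4.33, 4.53 and 5.42. Of the 26 contractile genes, 23 stayed within a 2-fold range, and 11.5% passed the limit, near the 13.0% of all genes. Their median CV was 20.7%, against 17.0% of all genes, and 19 of the 26 were highest in replicate 1. Cald1, which encodes caldesmon, at 94.8, 40.5 and 54.8, and Synpo2, an actin-binding protein of muscle, at 10.3, 5.20 and 4.34, were among the 3 past the limit, with replicate 1 highest for both.

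Regulators and mural cell markers held 0.0647%, 0.0519% and 0.0463%. Rgs5, a marker of pericytes, was the gene of 13 past the limit, at 94.9, 73.7 and 36.6, with replicate 3 lowest. Pdgfrb, the receptor of mural cells for platelet-derived growth factor, varied little at 65.8, 55.6 and 62.4, as did Mcam, with a mean of 47.0 ± 5.23. Klf4, a factor that holds down contractile genes, was at 36.1, 21.8 and 32.6, Csrp2, a relative of Csrp1, had a mean of 18.5 ± 4.22, and Klf5 was low, with a mean of 2.51 ± 0.827. Skeletal and cardiac muscle genes held only 0.00393%, 0.00746% and 0.00529%. Their highest members were Tnnt3, a fast troponin, at 6.93, 15.6 and 11.5, Eno3, at 3.08, 6.13 and 4.70, and Tnnt2, the cardiac troponin, at 1.14, 6.16 and 1.87. Replicate 2 was the highest library for 6 of 8, and 4 passed the limit.

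Immune genes held 6.92%, 8.86% and 9.54%, with replicate 1 lowest. Of 235 genes in the class, 229 were matched and 187 had a mean FPKM of at least 1, with a median of 12.4. The 2-fold limit was passed by 65 of the 187, or 34.8%, against 13.0% of all genes, and replicate 2 was the highest library for 104, or 55.6%, against 32.1%.

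The macrophage list carried most of this share, 4.86%, 6.55% and 7.57%. Apoe had an FPKM of 11926, 10865 and 19594, and replicate 3 was above both others. Lyz2 had 7979, 16987 and 13980.1, and replicate 1 was below both others. The ratio of Apoe to Lyz2 was accordingly 1.49, 0.640 and 1.40, and that of Lyz2 to Acta2 was 17.0, 40.6 and 30.9. Apoe is also made by smooth muscle cells and fibroblasts of vessel walls, and without the highest member of the class the immune share was 5.95%. Gpnmb was highest in replicate 3, at 1734, 1636 and 2489. Lgals3, which encodes galectin 3, had 866, 847 and 1314, and Cd68, a lysosomal marker of macrophages that was chosen after its values were seen, 726, 557 and 971. Replicate 3 was again the highest for both. Fcer1g, a signalling chain of Fc receptors, had 949, 1256 and 1244. The subunits of C1q, the starter of the classical complement path that macrophages secrete, had another order: C1qb had 302, 526 and 269, with replicate 2 highest, and the ratio of C1qa to C1qb was 1.47, 1.10 and 1.51. Cd14, the coreceptor for endotoxin, was also highest in replicate 2, at 66.7, 149.9 and 73.3. Fcgr3a, an Fc receptor, was highest in replicate 1, at 19.6, 3.69 and 8.62. Of 27 macrophage genes, 17 were highest in replicate 2, or 63.0%, against 32.1% of all genes, while the summed share was highest in replicate 3, where Apoe was highest. The 2-fold limit was passed by 4 of the 27, or 14.8%, near the 13.0% of all genes.

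MHC class II genes, with which macrophages, dendritic cells and B cells present peptides, held 0.825%, 0.999% and 0.725%, and 4 of 10 passed the limit. Cd74 had 3195, 4074 and 3017. The chains of the class II molecule RT1-D, RT1-Da and RT1-Db1, had 638, 663 and 469 for RT1-Da and 202, 338 and 305 for RT1-Db1. RT1-Ba and RT1-Bb, the chains of RT1-B, had 257, 229 and 115 for RT1-Ba and 227, 70.1 and 80.5 for RT1-Bb. The ratio of RT1-Bb to RT1-Ba was 0.885, 0.307 and 0.702, and that of RT1-Db1 to RT1-Da was 0.316, 0.509 and 0.650. Chains of 1 molecule thus did not keep a fixed ratio. MHC genes vary in sequence within a species, Sprague-Dawley rats are outbred, and reads of near-identical members cannot be placed with certainty, so that these values are uncertain. The part of sequence variation was not tested. RT1-DOa, which modulates peptide loading in B cells, was highest in replicate 2, at 4.62, 11.6 and 3.96. Class I genes held 0.243%, 0.239% and 0.262%. Among them, B2m, the shared light chain, had 924, 801 and 915, the heavy chain genes RT1-A2, RT1-CE4, RT1-CE5, RT1-S3 and RT1-CE10 had a mean of 83.3, 61.9, 60.1, 52.9 and 15.1, and Psmb8, a subunit of the immunoproteasome, had 64.5 ± 13.6. RT1-CE4 was the gene of 16 in the class I list past the limit, at 35.9, 76.9 and 72.7.

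T and NK cell genes held 0.0382%, 0.0732% and 0.0412%, and replicate 2 was the highest library for 25 of 26. The 2-fold limit was passed by 17. Cd3e and Cd3g, chains of the T cell receptor complex, had an FPKM of 4.02, 23.7 and 5.25 for Cd3e and 2.74, 17.5 and 3.37 for Cd3g. Cd8a had 12.2, 34.1 and 11.4, Cd8b 8.54, 13.7 and 10.7, Lat, an adaptor of T cell receptor signalling, 7.22, 22.2 and 10.3, and Cd27, a costimulatory receptor, 2.10, 16.4 and 4.27. The largest member of the list was Cd4, at 134, 168 and 138, which rat macrophages carry as well and which varied little. The ratio of Cd3e to Cd68 was 0.00554, 0.0425 and 0.00541. Cd3e thus lay far below Cd68 in each library, by least in replicate 2, where Cd3e was highest and Cd68 lowest.

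B and plasma cell genes held 0.117%, 0.179% and 0.0651%, with 12 of 13 highest in replicate 2 and 12 of 13 past the limit. The antibody chain genes Igkc and Igha were not analysed here, so the share leaves them out. Ighm, the heavy chain of IgM, had an FPKM of 400.3, 678 and 256. Cd79a and Cd79b, the signalling chains of the B cell receptor, had 2.95, 21.0 and 2.201 for Cd79a and 2.43, 19.9 and 1.07 for Cd79b. Ms4a1, a surface marker of B cells, had 0.725, 6.48 and 0.323. Mzb1, a chaperone of antibody secretion, had 5.66, 16.1 and 3.18. Jchain, the joining chain of secreted antibodies, was the exception to the order, highest in replicate 1 at 220.1, 189 and 88.7. Cxcl13, the chemokine that gathers B cells into follicles, was also highest in replicate 2, at 17.0, 27.2 and 11.7. Some genes of lymph node tissue, named because they lay furthest above both others in replicate 2, shared this pattern. Glycam1, a mucin of the high endothelial venules of lymph nodes, had 0, 186 and 0.0711, and Marco, a scavenger receptor of macrophages in lymph nodes and spleen, 0, 19.1 and 0. Ccl19, a chemokine of T cell zones, had 8.14, 50.4 and 4.30. The chemokine gene Ccl21, described below, did not share the pattern and was highest in replicate 1, at 623, 449 and 411. The part of lymphoid tissue in the share of T and B cell genes in replicate 2 was not tested.

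Chemokine and cytokine genes held 0.280%, 0.314% and 0.250%, and 10 of 33 passed the limit. Ccl21, the chemokine of lymphatic vessels, led the list at 623, 449 and 411 and was highest in replicate 1, unlike Ccl19. Ccl9 and Ccl6, chemokines of myeloid cells, had 228, 366 and 278 for Ccl9 and 151, 169 and 177 for Ccl6. Ccl2, which draws monocytes, had 95.3, 98.8 and 59.2, and Cxcl16, a scavenger receptor and chemokine of macrophages, 78.2, 152 and 86.7. The eosinophil chemokines Ccl11 and Ccl24 had 9.05, 35.5 and 27.5 for Ccl11 and 15.1, 42.1 and 12.4 for Ccl24, both highest in replicate 2. Il6, which was chosen after its values were seen, was near 0, at 0.0831, 0.106 and 0.1003.

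Complement genes held 0.199%, 0.163% and 0.210%, and 3 of 16 passed the limit, or 18.8%, against 13.0% of all genes. C2, C1r and C1s, of the classical path, had a mean FPKM of 153 ± 13.1 for C2, 136 ± 16.7 for C1r and 108 ± 21.7 for C1s, and Cd59, which guards cells from the membrane attack complex, had 146 ± 12.7. C4a and C4b, near-identical copies whose reads cannot be told apart with certainty, had 132, 68.7 and 215 for C4a and 106, 47.7 and 79.2 for C4b, both lowest in replicate 2. C3, the central component, was low, at 7.93, 10.6 and 2.97. Interferon response genes held 0.332%, 0.309% and 0.384%. Ifitm1 had 571, 694 and 953, and Ifitm3, Ifi27 and Bst2 had a mean of 492 ± 58.9 for Ifitm3, 235 ± 24.2 for Ifi27 and 114 ± 32.0 for Bst2. Irf7, the regulator of type I interferon genes, was lowest in replicate 2, at 108, 34.3 and 84.2, and Ifit1 was nearly missing in replicate 3, at 10.6, 7.41 and 0.128. These were the 2 of 29 past the limit. Rsad2 was at 4.60, 2.09 and 2.94.

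Neutrophil genes were few, with 0.0164%, 0.0137% and 0.0135%, and 6 of 10 passed the limit. S100a9 and S100a8, the subunits of calprotectin, had an FPKM of 34.8, 3.59 and 24.2 for S100a9 and 14.6, 2.29 and 9.71 for S100a8, lowest in replicate 2. Other members were instead highest in replicate 2. Retnlg, a resistin-like gene of neutrophils, had 8.31, 25.2 and 15.7. The defensin genes Defa5 and Np4 had 1.55, 7.25 and 0 for Defa5 and 1.22, 4.67 and 0.140 for Np4. The list thus split into genes lowest and genes highest in that library. Lcn2, an iron-sequestering protein, had 13.6, 8.97 and 13.9. Mast cell genes held 0.00895%, 0.0138% and 0.0203%, and 6 of 7 passed the limit. Mcpt1l1 and Cma1, mast cell proteases, had 27.7, 49.0 and 75.1 for Mcpt1l1 and 7.72, 10.2 and 17.4 for Cma1, and Cpa3, a carboxypeptidase of the same granules, had 3.77, 5.66 and 9.29, with replicate 3 highest and replicate 1 lowest for each. Tpsb2 and Tpsab1, the tryptases, had 2.56, 4.21 and 5.73 for Tpsb2 and 2.14, 3.36 and 3.25 for Tpsab1, and Hpgds, a prostaglandin synthase, was at 1.28, 1.54 and 0.239.

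**Figure D3:**
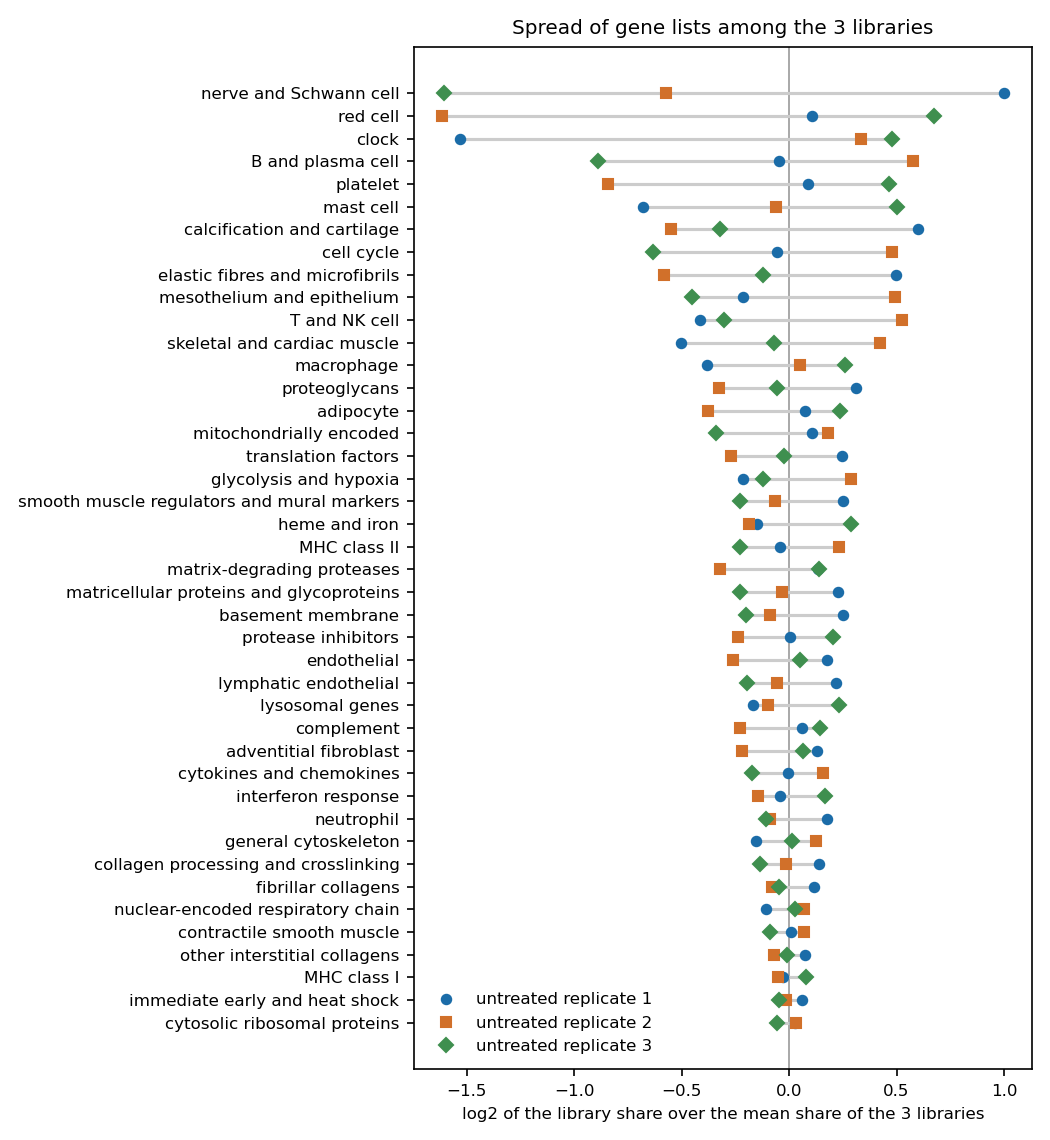
Log2 of the share of each gene list in a library over its mean share in the 3 libraries, 1 point for each library. The lists at the top, nerve, red cell, clock, B cell and platelet, have the widest ranges, and those at the bottom, among them ribosomal proteins, contractile smooth muscle and fibrillar collagens, the narrowest.

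Mitochondrially encoded genes held 20.03%, 21.2% and 14.7%, with replicate 3 lowest. No member was highest in replicate 3, 6 of 13 were highest in replicate 1 and 7 in replicate 2. Mt-atp6 had an FPKM of 18495, 23367 and 15286, and Mt-atp8, which overlaps it on the mitochondrial genome, 11032, 11571 and 6571. Mt-co1, Mt-co2 and Mt-co3 had 20874, 17226 and 14598 for Mt-co1, 12343, 16470.4 and 12110.5 for Mt-co2 and 17930.1, 15296 and 13113 for Mt-co3. Mt-nd1 had 8778, 9784 and 6345, Mt-cyb, of complex III, 7336, 6532 and 5215, Mt-nd3 4142, 3008 and 3175 and Mt-nd4 2672, 2763 and 1814. The 3 members past the 2-fold limit were Mt-nd2, at 5263, 7701 and 3617, Mt-nd6, at 1181, 2591 and 1042, and Mt-nd4l, at 1654, 1054 and 666, all of complex I. The genes did not keep 1 ratio: that of Mt-co1 to Mt-co2 was 1.69, 1.05 and 1.21. Mt-nd6 lies on the other strand from its neighbours, and the sources used here do not give the strand setting of the counting. The mitochondrial ribosomal RNAs were not analysed here.

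Nuclear genes of the respiratory chain varied less. They held 1.38%, 1.56% and 1.51%, and 1 of 72 passed the 2-fold limit, Ndufv3, at 3.99, 1.38 and 2.64. Their median CV was 11.9%, against 17.0% of all genes and 21.4% of the mitochondrially encoded ones. The highest were Atp5f1e, at 604, 508 and 682, and Cox6a1, at 522, 492 and 591, then Cox8a, Atp5mf and Cox4i1 with a mean of 462, 374 and 372. Ndufs7 was at 43.4, 76.9 and 62.3 and Atp5me at 40.01, 63.8 and 50.1. Glycolysis and hypoxia genes held 0.284%, 0.403% and 0.304%, with none of 21 past the limit and 14 highest in replicate 2. Aldoa, Pkm, Eno1, Ldha and Gpi, enzymes of glycolysis, had a mean of 561, 295, 283, 163 and 146, and the FPKM of Aldoa was 464, 687 and 532. Pfkl had 21.4, 32.4 and 19.9, and Gapdh was not analysed here. Ca9 and Adm, targets of the hypoxia response, were low, at 1.86, 0.767 and 0.734 for Ca9 and 2.74, 3.54 and 1.92 for Adm.

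Cytosolic ribosomal proteins had the narrowest relative range of share of all lists, with 8.06%, 8.09% and 7.61%. Of 79, 5 passed the 2-fold limit, and their median CV was 9.33%. Rps15, Rplp1, Rpsa and Rpl41 had a mean FPKM of 1635, 1588, 1308 and 1284. Rpl30, at 259.8, 95.7 and 136, Rps18l1, at 84.9, 28.7 and 84.7, and Rps10l1, at 2.56, 0.957 and 3.90, had the widest range. Ribosomal protein genes have many processed copies, among which reads cannot be placed with certainty. Rps29 itself had 19.5, 11.2 and 25.4, whereas the copy that RefSeq names Rps29-ps16, a pseudogene, had 2217, 2296 and 2363. Among translation factors, Tpt1 had 2839.8, 1533 and 2514, Eef1a1 2257, 1816 and 1738 and Pabpc1, the poly(A) binding protein, 409.8, 254 and 312. Eef2, Eef1g and Eif4a2 had a mean of 567, 347 and 60.8.

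The general cytoskeleton list held 2.73%, 3.31% and 3.07%, and 0 of 15 genes passed the limit. Tmsb4x had 6506, 8628 and 8751, Actb 1894, 2344 and 1768, and Vim, the intermediate filament of mesenchymal cells and macrophages, 1529.6, 1354 and 1337. S100a11 and S100a6, calcium-binding proteins, had a mean of 1353 and 764. Cfl1, the actin-severing cofilin, had 638, 948 and 683, and the tubulins Tuba1b and Tuba1a had 333, 381 and 277 for Tuba1b and 189, 157 and 125 for Tuba1a.

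Red cell genes varied more than any of these, with 4.51%, 1.37% and 6.70%. All 8 passed the 2-fold limit and all were lowest in replicate 2 (Ahsp, a chaperone of alpha-globin, included, at 9.14, 1.78 and 2.54). Hba-a1 had an FPKM of 14522, 4599 and 24351, Hba-a2 7151, 2306 and 9529 and Hba-a3 306, 103 and 259. The beta-globin genes Hbb and Hbb-bs had 2289, 425 and 2931 for Hbb and 1126, 234 and 1226 for Hbb-bs. Alas2, the enzyme that starts heme synthesis in red cell precursors, had 38.2, 6.51 and 40.1. Hba-a1 and Hba-a2 had the same order of libraries, with a ratio of Hba-a1 to Hba-a2 of 2.03, 1.99 and 2.56. Hba-a1 and Hba-a2 are near-identical copies, and the beta-globin genes resemble each other too, so the split of reads between copies is uncertain. The listed red cell genes made up to 6.70% of a library. LOC100134871, a beta-globin-like gene outside the list, held a further 0.287%, 0.0769% and 0.398%. With the listed red cell genes left out of the total, an alternative chosen after seeing the data, the matrix share was 3.68%, the muscle share 0.707%, the immune share 8.82% and the mitochondrial share 19.4%.

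The stretches before the start sites of Hba-a1, Hba-a2 and Hbb are shown because these genes were the most variable among the 30 highest and had the same order of libraries. They are 120 bases long, end at the base before the RefSeq start site and are written from 5′ to 3′ on the strand of the gene, after RefSeq on GRCr8. Hba-a1 lies at chr10:15842581-15842700 on the minus strand, Hba-a2 at chr10:15829139-15829258 on the minus strand, and Hbb at chr1:167663722-167663841 on the minus strand. Capitals mark the letters TATAAA and CCAAT or, for these motifs on the other strand, TTTATA and ATTGG.
Hba-a1: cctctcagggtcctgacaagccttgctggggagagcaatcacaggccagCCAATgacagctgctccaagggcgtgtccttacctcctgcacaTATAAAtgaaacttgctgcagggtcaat
Hba-a2: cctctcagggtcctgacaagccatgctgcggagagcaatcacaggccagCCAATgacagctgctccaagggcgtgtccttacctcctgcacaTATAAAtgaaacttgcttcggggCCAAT
Hbb: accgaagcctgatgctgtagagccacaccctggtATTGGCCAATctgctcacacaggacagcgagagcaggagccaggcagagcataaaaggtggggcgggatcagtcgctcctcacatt
The 2 alpha-globin stretches were the same at 115 of 120 bases, or 95.8%. Both hold TATAAA beginning 28 bases before the start and CCAAT beginning 71 bases before it, and Hba-a2 holds a further CCAAT 5 bases before it. Hbb has ATTGG and CCAAT side by side, beginning 86 and 81 bases before the start, and no TATAAA in this window. Of 33469 RefSeq stretches of the same length, 6.66% hold TATAAA or TTTATA and 19.9% hold CCAAT or ATTGG. A match describes the letters only. The genome build behind the deposited values is not known, and the coordinates are those of RefSeq.

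Platelet genes held 0.0599%, 0.0315% and 0.0779%, and nearly all of it was Pf4, platelet factor 4, at 325, 176 and 432. Itga2b, Gp9 and Ppbp, further platelet genes, had 6.34, 0.761 and 7.79 for Itga2b, 2.37, 0.142 and 2.85 for Gp9 and 2.24, 0.127 and 2.09 for Ppbp, and Gp5 1.06, 0.0128 and 0.864. The 4 with a mean FPKM of at least 1 all passed the limit, and replicate 2 was lowest for each, as for the red cell genes. Platelet genes outside the list shared the order: Gp1bb had 9.75, 0.116 and 22.8, Clec1b 10.95, 0.632 and 15.5, and Npy, the neuropeptide Y gene that rat platelets and sympathetic nerves express, 129, 4.65 and 279. The listed heme and iron genes held 0.611%, 0.595% and 0.828%, 3 of 10 past the limit, and most of this share was Fth1, at 2846, 2578 and 3699. Hmox1, the heme-degrading oxygenase of macrophages, had 79.1, 59.4 and 82.2, and Blvrb, the next enzyme of that path, 23.3, 23.7 and 31.5. Ftl1, the ferritin light chain, was at 434, 641 and 887, and a near copy that RefSeq lists with Ftl1 as a synonym, LOC100360087, was at 5583, 7057 and 10273, so that light chain reads cannot be assigned with certainty. This copy is not in the list and alone held 0.991%, 1.26% and 1.79% of the summed FPKM, more than the whole list in each library. Cp, ceruloplasmin, was at 48.5, 23.7 and 28.4. Hamp, which encodes hepcidin, was at 4.52, 0.487 and 0.

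Markers of the other cells of the wall and its surroundings were present at lower levels. Adventitial fibroblast genes held 0.129%, 0.101% and 0.124%. Serpinf1, Igf1 and Pi16, a marker of adventitial progenitor-like fibroblasts, had 195, 127 and 161 for Serpinf1, 121, 82.5 and 140.1 for Igf1 and 99.1, 136 and 106 for Pi16. Thy1 had 70.3, 91.6 and 64.2 and Pdgfrl 19.1, 10.2 and 14.1. Clec3b, at 111, 51.1 and 116, and Scara5, at 32.8, 10.3 and 28.9, were the 2 of 12 past the limit, or 16.7%, near the 13.0% of all genes. Both were lowest in replicate 2.

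Endothelial genes held 0.108%, 0.0796% and 0.0988%. Of 21 genes, 13 were highest in replicate 1, or 61.9%, against 42.4% of all genes, and 5 were past the limit, or 23.8%, against 13.0%. Plvap, of fenestrated endothelium, had 111, 73.5 and 103. Eng, Tie1 and Egfl7 had a mean of 81.0 ± 5.86 for Eng, 67.5 ± 4.23 for Tie1 and 45.3 ± 10.1 for Egfl7. Replicate 2 was lowest in transcription factor genes of the list: Sox18 had 46.1, 22.4 and 30.7, Sox17 12.2, 5.46 and 12.4 and Erg 17.7, 8.24 and 12.2. Aplnr, the apelin receptor, had the widest range, at 11.03, 3.69 and 8.75. Cldn5, the claudin of endothelial junctions, was listed at 0 in each library, and Pecam1 was not analysed here. Lymphatic endothelial genes held 0.0113%, 0.00932% and 0.00847%, with Lyve1, also of resident macrophages, at 18.2, 20.7 and 13.8, Pdpn at 15.3, 14.7 and 16.8, Flt4 at 9.29, 9.99 and 7.45, Mmrn1 at 18.4, 6.05 and 9.64 and the lineage factor Prox1 at 2.38, 0.732 and 0.718. Mmrn1 and Prox1 were highest in replicate 1 and were the 2 of 5 past the limit.

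Adipocyte genes held 0.525%, 0.384% and 0.589%, 6 of 26 past the limit. Fabp4, the fatty acid binding protein of fat cells, macrophages and endothelium, had 1551, 1053 and 2112. Cfd, adipsin, had 553, 341 and 553, Lpl, lipoprotein lipase, 193, 139 and 179, and Adipoq, the adiponectin gene of fat cells, 130.0, 82.7 and 70.4. Scd, the desaturase of fat synthesis, had 115, 69.5 and 1.87 and Fasn, the fatty acid synthase, 11.9, 32.3 and 4.13, so that both were lowest in replicate 3. Lep, which encodes leptin, was at 3.14, 1.15 and 0.741. Fat-cell genes were thus found in each library. Ucp1, the marker of brown fat, was near 0, at 0, 0.188 and 0.0259.

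Nerve and Schwann cell genes had the widest range of all lists, with 0.0606%, 0.0204% and 0.00996%. Replicate 1 was the highest library for 18 of 19, and 17 passed the limit. Of the Schwann cell genes, Mbp, a myelin protein, had 21.6, 15.2 and 7.69, and S100b 43.5, 21.8 and 22.2. Neuronal genes were low in both replicates 2 and 3. Tubb3, the neuronal tubulin, had 32.7, 4.43 and 2.67, Uchl1, a neuronal ubiquitin hydrolase, 35.4, 5.03 and 5.27, and Stmn2, a stathmin of growing axons, 21.4, 1.19 and 0.249. Dbh, the enzyme that makes noradrenaline in sympathetic neurons, had 11.01, 0.474 and 0. Replicate 1 thus stood above both others in neuronal genes, whereas Mbp was also above replicate 3 in replicate 2.

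Genes of mesothelium, epithelium, adrenal, liver and kidney were low in each library. Genes of lymph node tissue and of nerve are described above and are not in these lists. Mesothelial and epithelial genes held 0.00179%, 0.00291% and 0.00151%, with Msln at 3.92, 6.90 and 3.98, Krt18 at 0.647, 3.42 and 0.245, Krt8 at 1.26, 1.92 and 1.55, Krt19 at 1.72, 1.48 and 0.826 and Upk1b at 1.32, 1.20 and 0.490, and with Krt5, Krt14 and Upk3b at 0 in each library. Adrenal, liver and kidney genes held 0.000311%, 0.000597% and 0.000560%. Apoa1, Alb, Star, Cyp11a1 and Ttr had a mean FPKM of 1.12, 0.971, 0.433, 0.196 and 0.0440, and Umod and Cyp17a1 were at 0.

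**Figure D4:**
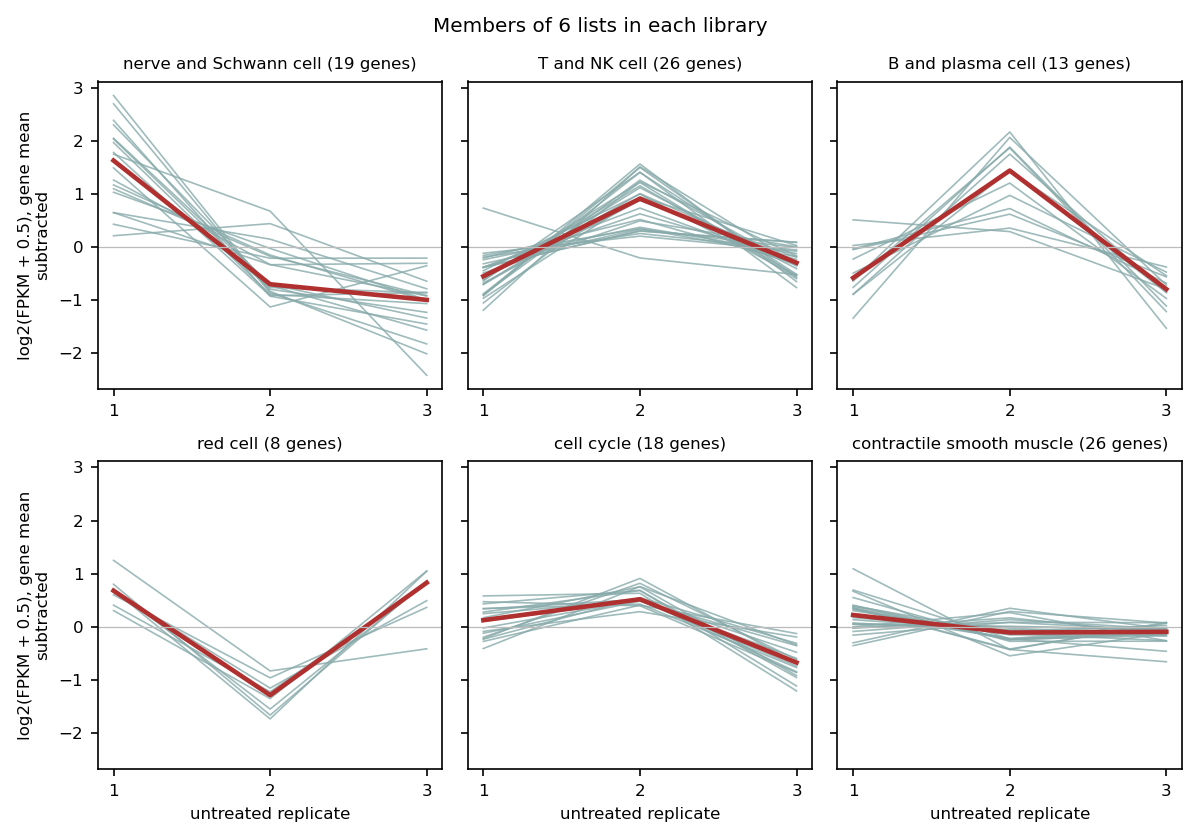
Log2(FPKM + 0.5) of each gene of 6 lists, less the mean of that gene over the 3 libraries, for untreated replicates 1, 2 and 3, which have no order. Thin lines join the values of 1 gene and the thick red line joins the medians. Nerve genes are highest in replicate 1, T, B and cell cycle genes in replicate 2, and red cell genes are lowest in replicate 2. Of the 26 contractile genes, 19 are highest in replicate 1.

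Cell cycle genes held 0.0183%, 0.0265% and 0.0123%, with 17 of 18 highest in replicate 2 and 13 past the limit. Pcna, the clamp of DNA replication, had 26.9, 35.0 and 25.0. The replication helicase subunits Mcm7, Mcm2 and Mcm6 had 7.42, 12.2 and 8.27 for Mcm7, 5.15, 9.22 and 4.85 for Mcm2 and 3.94, 9.47 and 4.15 for Mcm6. Mki67, a marker of cycling cells, had 3.71, 5.81 and 1.48, Cdk1 9.43, 11.3 and 4.52, Ccna2 5.72, 6.92 and 1.63 and Rrm2 4.5003, 4.68 and 0.946, with replicate 3 lowest for each. These helicase genes thus set replicate 2 apart from both others, and Mki67, Cdk1, Ccna2 and Rrm2 set replicate 3 below both others. Ube2c and Prc1, of mitosis, showed that order too, at 17.1, 20.04 and 6.55 for Ube2c and 6.50, 7.63 and 2.35 for Prc1.

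Clock genes held 0.0124%, 0.0452% and 0.0499%, and 11 of 13 passed the limit. Nr1d1, the repressor REV-ERB alpha, had 3.05, 71.7 and 83.5, Dbp, an output factor of the clock, 9.19, 109 and 114, and Tef, of the same family, 7.26, 16.8 and 23.3. Nr1d2 and Per3 had 1.86, 10.2 and 12.1 for Nr1d2 and 0.853, 6.03 and 8.32 for Per3. These were all lowest in replicate 1. Arntl, which encodes the activator BMAL1, and Npas2, a partner of BMAL1, were highest there, at 11.4, 2.62 and 2.18 for Arntl and 8.69, 0.671 and 1.45 for Npas2. In the clock of mammals the activator genes and the genes they drive peak at opposite times of day, and the hour of tissue collection was not stated in the labels. Cry2 and Per1, clock repressors, had 8.68, 10.9 and 15.6 for Cry2 and 5.31, 11.1 and 10.9 for Per1. The part of collection time was not tested.

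Stress genes held 0.182%, 0.172% and 0.169%. Hspa8, the constitutive heat shock protein, had 313, 383 and 242, and Hspa5, the chaperone of the endoplasmic reticulum, 122, 124 and 84.7. The immediate early genes Junb and Zfp36 had 91.9, 74.8 and 113 for Junb and 60.5, 66.9 and 101 for Zfp36. Atf3 was highest in replicate 3, at 57.0, 48.8 and 104. Hspb1, a small heat shock protein, and Hspa1b, an inducible one, were highest in replicate 1, at 137, 37.1 and 84.5 for Hspb1 and 18.0, 4.44 and 3.66 for Hspa1b. These 3 of 15 genes passed the limit.

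Beyond the lists, single genes set each library apart. Among 7517 genes with a usual symbol and a mean FPKM of at least 5, 77 were at least 2-fold above both other libraries in replicate 1, 70 in replicate 2 and 10 in replicate 3, and 21, 76 and 20 were at least 2-fold below both. The 10 furthest above in replicate 1 held the neuronal genes Stmn2, Tubb3, Uchl1 and Prph, the peripheral neuron filament peripherin, at 29.2, 3.95 and 2.18. They also held Nnat, at 65.7, 13.9 and 15.3, Pirb, an inhibitory receptor of myeloid cells, at 36.0, 6.17 and 6.08, and Cst6, a cystatin, at 177, 11.5 and 48.4, beside Arntl, Hspa1b and Mfap4. The 10 furthest below in replicate 1 were led by Nr1d1 and Dbp, with Per3 and Nr1d2 of the same list and Ccl11. Others were Lilrb4, at 96.0, 264 and 262, Fam111a, at 1.73, 74.0 and 16.3, Sap25, at 12.6, 39.9 and 36.1, Cyp2d3, at 5.69, 22.1 and 16.1, and Zfp692, at 3.72, 12.5 and 9.30. Fam111a was also among the 10 furthest above in replicate 2.

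The genes furthest above in replicate 2 were mostly of lymphocytes and lymphoid tissue, namely Glycam1, Marco, Cd79b, Cd79a, Ccl19 and Cd3g. Ubd, a ubiquitin-like gene induced by interferon gamma, had 1.73, 15.9 and 2.55, Rnase1, a secreted ribonuclease, 1.001, 17.0 and 2.14, and Cd79al 2.72, 14.0 and 2.11. Those furthest below were mostly of blood cells: Npy, Gp1bb, Clec1b, S100a9, Alas2 and Hbb. Nrgn, which platelets and neurons express, had 19.7, 3.09 and 27.1, Cd52, a surface glycopeptide of leukocytes, 22.9, 3.83 and 25.6, Lgals5, a rat galectin of red cell precursors, 25.2, 2.95 and 17.0, and Nfib, a transcription factor, 12.7, 1.18 and 9.26. Both sets were picked for their values in replicate 2. By the lists above, most T cell and B cell genes were highest in replicate 2, where all listed red cell genes were lowest. Jchain was not highest there, and Cd52 was lowest there.

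In replicate 3, the gene furthest above both others was Cyp2e1, a cytochrome P450 of liver and fat, at 3.73, 6.62 and 74.8. Tcirg1, a proton pump subunit of osteoclasts and macrophages, had 96.4, 102 and 254, Cd300a, a receptor of myeloid cells, 37.6, 25.9 and 78.7, Apoc1, an apolipoprotein, 3.04, 4.07 and 9.47, and Gadd45b, of the stress response, 22.0, 20.6 and 48.0. Rhov had 4.32, 4.28 and 9.61 and Krt75 10.6, 15.6 and 32.9, and Mmp9, Gp1bb and Npy made up the 10. The genes furthest below were led by Scd, Ifit1 and Slpi. Apod, an apolipoprotein of nerve and fibroblasts, had 168, 53.3 and 7.82, and Gpc3, a glypican, 9.75, 10.1 and 3.33, and Fasn, Ube2c, Prc1 and C3 were also among the 10.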

How the data were processed

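RNA-seq values of 3 libraries of untreated rat abdominal aortic aneurysms were used, with groups taken from the treatment label. The whole-number counts per gene and the FPKM values were both deposited by the authors in 1 table. HISAT2 2.0.4 is listed per the submitters' processing notes, and SOAPnuke, a read filter, per the series design text. For the counter, genome build, annotation and strand setting nothing is stated there. After each library was centred, the ratio of count to FPKM was the same in all libraries to 0.01 on a log2 scale for 82.6% of 9773 genes with over 200 counts.

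Python 3.11.15 with pandas 2.3.3, numpy 2.4.6 and matplotlib 3.10.9 computed shares, means, SDs, ratios and the 2-fold counts from FPKM. R 4.3.3 with edgeR 4.0.16 (TMM) and DESeq2 1.42.0 (size factors) gave the alternative scalings of the counts; the procedure was tested on simulated data. Of 947 entries in 43 gene lists, 904 were matched by symbol, and 43 were not analysed here. The libraries, the lists and the named genes' rule were chosen with earlier results of these data known. Named were the 5 markers, the 30 genes of highest mean FPKM with a usual symbol (no MSTRG, AABR, LOC, RGD, ENSRNOG or AC clone name and no date), the 5 highest and 3 most variable members of each list described, and the 10 genes furthest above and below for each library. Ratios between genes of different lists (Acta2 to Col1a1, Lyz2 to Acta2, Timp1 to Mmp2 and Cd3e to Cd68) lie outside that rule. Names without a usual symbol held 9.47%, 9.89% and 9.88% of the summed FPKM. Of the names, 16795 matched a RefSeq symbol on GRCr8, from which the promoter stretches were taken. Alternatives were another measure, denominator, scaling, pseudocount or filter, and leaving out each library. A few genes that this rule names are not reported here.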

Additional observations from a re-analysis of the deposited data

How the results depend on the processing

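No paired analysis was possible because only 1 group was described and no comparison between groups was made. By total counts instead of FPKM the mean shares were 7.44% for matrix, 0.908% for muscle and 11.4% for mitochondrial genes. Without its highest member a class held 3.01% (matrix), 0.547% (muscle) or 5.95% (immune). With mitochondrial genes out of the total the shares were 4.34%, 0.835% and 10.4% in that order, and over usual symbols alone the muscle share was 0.750%. The cause of each of these shifts is the construction of the alternative. Leaving out 1 library gave 3.23% to 3.69% for matrix, 0.663% to 0.699% for muscle, 7.89% to 9.20% for immune and 17.4% to 20.6% for mitochondrial genes. The 1729 genes past the 2-fold limit became 745 of 8359 at a mean FPKM of at least 5, and 722 to 1212 without 1 library: 722 without replicate 2, 771 without replicate 1 and 1212 without replicate 3. Other settings stayed within 1.5 times, from 1331 at a pseudocount of 1 to 2478 with no filter, with 1889 under TMM and 1890 under DESeq2 size factors, which moved the median gene by at most 0.04 on the log2 scale. The library of highest summed FPKM changed with TMM scaling for other interstitial collagens, the nuclear respiratory chain, ribosomal proteins and adventitial fibroblasts, and the library of highest share differed between FPKM and counts for contractile smooth muscle, complement, adipocyte and stress genes. With 3 libraries an SD is itself imprecise, and values near 1 FPKM rest on few reads.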

Other observations

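The listed genes of calcification and cartilage, which can accompany long-standing aneurysm, were low in the untreated wall, with 0.00925%, 0.00418% and 0.00489% of the summed FPKM. Mgp, Spp1, Comp and Acan are counted with the matrix lists and are not part of this share. Tnfrsf11b, which encodes osteoprotegerin, the decoy receptor that restrains osteoclasts, had an FPKM of 22.4, 5.22 and 7.41, and Enpp1, which makes the calcification inhibitor pyrophosphate, 18.3, 8.25 and 8.43. Both were highest in replicate 1. Runx2, the master factor of bone formation, had 2.63, 3.13 and 3.55, Sost, which encodes sclerostin, 1.46, 1.89 and 2.87, and Alpl, the phosphatase of mineralizing cells, 1.53, 2.21 and 0.922.

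Of the 100 genes of highest mean FPKM, 10 had no usual symbol. LOC100360087, a ferritin light chain copy, was the highest of them. LOC100364435, which RefSeq names Tmsb10-ps6, a pseudogene, had 2575, 2676 and 2820.2, whereas Tmsb10 itself had 47.9, 52.3 and 64.5. LOC100134871, which RefSeq names Hbbl1, a beta-globin-like gene, had 1620.1, 431 and 2277 and was lowest in replicate 2. MSTRG.20043 and AABR07060872.1, which are not annotated in the tables used here, had 3265, 3930.1 and 2539.8 for MSTRG.20043 and 1961, 3420.0 and 1039.6 for AABR07060872.1. Of the Y-linked genes, Kdm5d had 3.59, 3.67 and 3.63 and Eif2s3y 22.3, 17.9 and 17.6, whereas Ddx3y held 8, 6 and 4 counts and Usp9y was at 0.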
